A study of Mus musculus with 8 samples.

Results

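The genes described here are 9 complement receptors and regulators: the anaphylatoxin receptors C5ar1, C5ar2 and C3ar1, the receptors and membrane regulators of C3 fragments Cr2, Cr1l and Cd55, the inhibitor of the membrane attack complex Cd59a, and the fluid-phase proteins Cfp (properdin) and Serping1 (C1 inhibitor). They were chosen by name, by their role in the complement system, and are 9 of the 13786 protein-coding genes in the deposited count table. RNA was sequenced from CD11c-positive splenocytes of 4 C57BL/6 mice and 4 B6.SLE123 mice, all females of 7 weeks. B6.SLE123 is a lupus-prone congenic strain that carries the susceptibility intervals Sle1, Sle2 and Sle3 of NZM2410 mice, on chromosomes 1, 4 and 7, on the C57BL/6 background, which both strains share. The bounds of these intervals are not given in the sources used here, so for genes on those chromosomes a difference in the interval itself and a difference in the cells cannot be told apart. The question of the comparison is how complement receptor and regulator transcripts differ between the lupus-prone strain and its control in these cells. The genotype labels number the mice upward within each strain name, so the strain was taken from the sample names. The labels do not say whether each sample is a single mouse or a pool, and it is called a mouse here.

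Complement is a cascade of plasma and cell-derived proteins that tags targets with fragments of C3 and ends in the membrane attack complex. Cleavage of C3 and C5 releases the anaphylatoxins C3a and C5a, which act on G protein-coupled receptors of myeloid cells, while C3 fragments left on a target are read by complement receptors. Host cells are protected by membrane regulators that stop the C3 convertases or the attack complex, and early components and receptors of the cascade have long been studied in lupus, where clearance of dying cells and immune complexes is disturbed.

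The labels call the cells dendritic cells. CD11c, the product of Itgax, is also carried by some macrophages and B cells, so markers of both were examined. All 6 dendritic cell markers were measured and higher in B6.SLE123 mice, with a summed level of 22330 to 26114 CPM in C57BL/6 and 27564 to 29001 CPM in B6.SLE123 mice (CPM, the count relative to the TMM-scaled library total). All 12 markers of red pulp macrophages, the iron-recycling macrophages of the spleen, were lower, with summed levels of 13284 to 16973 CPM against 1901 to 3790 CPM, and both Vcam1 (2471 against 453 CPM) and Spic (373 against 56.4 CPM) were well above 0 in C57BL/6 mice. The mature B cell list summed to 698 to 784 CPM against 605 to 724 CPM. The table holds only genes whose larger strain median was at least 5 counts, so no marker in it could be at 0 in all mice, though low levels were possible. Not every listed marker was in the table (8 of 10 for neutrophils, 9 of 10 for follicular dendritic cells and stroma). The missing ones were not assessed. Total counts per mouse ranged from 25761789 to 32931045 in C57BL/6 and from 25563070 to 37367094 in B6.SLE123 mice. In bulk RNA, fewer cells of a type and less RNA per cell cannot be told apart.

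Of these, 8 passed the test as lower in B6.SLE123 mice and none passed as higher, at a Benjamini-Hochberg adjusted p under 0.05 (quasi-likelihood test of edgeR). Of all genes tested, 26.6% passed as lower and 26.7% as higher. All 9 log2 fold changes (B6.SLE123 over C57BL/6, negative when lower in B6.SLE123) were below 0, with a median of -1.22 against -0.0019 for all genes. C5ar2, C3ar1, Cd55, Cfp and Cd59a, 5 genes, were called and more than 2-fold lower, as were 8.29% of all genes. In 7 of the 9 genes every B6.SLE123 mouse had a lower CPM than every C57BL/6 mouse, as in 24.5% of all genes. The exceptions were C5ar1 and Serping1.

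**Figure D1:**
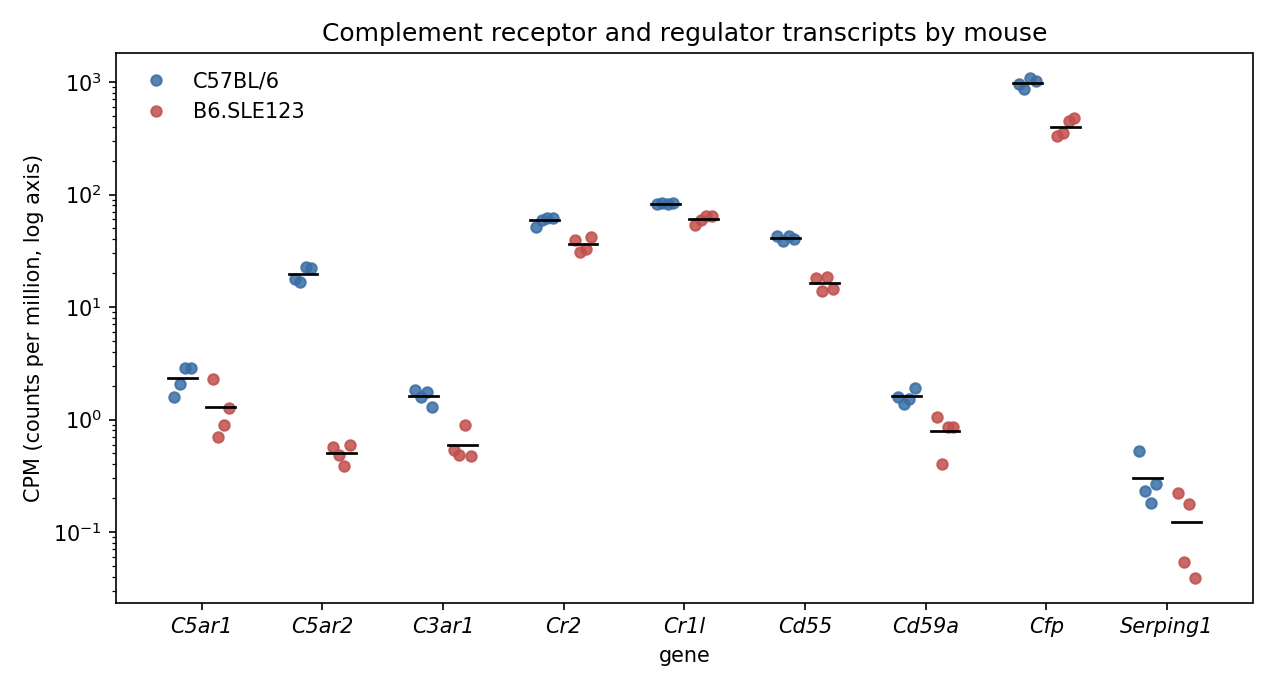
Level of each gene in each mouse, in CPM on a log axis; points are mice, 4 per strain, and bars are strain means. C5ar2 is at 16.9 to 22.6 CPM in C57BL/6 and at 0.385 to 0.590 CPM in B6.SLE123 mice, while C5ar1 and Serping1 overlap.

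C5ar1 and C5ar2, the receptors of C5a, are neighbours on the minus strand of chromosome 7 (mm10). C5ar2 lies at chr7:16234585-16244154 and C5ar1 at chr7:16246743-16259540, with 2588 bp between them. GENCODE M21 gives C5ar2 coding transcripts with 2 exons each and starts that lie 1823 bases apart. The 250 bases upstream of each C5ar2 start and of the C5ar1 start are shown because C5ar2 had the largest change of the 9 genes and its neighbour C5ar1 a small one. They are RefSeq reference sequence (GRCm38.p6, minus strand), that is of the C57BL/6 type, so they do not show what B6.SLE123 mice carry. Capitals mark GAGGAA, a core of sites of the myeloid factor PU.1, and GGAAGT, a core shared by factors of its ETS family, on either strand. GGAAGT was chosen after the sequences were read, and the letters of the motifs can overlap each other.
C5ar2, start of C5ar2-202, chr7:16244155-16244404: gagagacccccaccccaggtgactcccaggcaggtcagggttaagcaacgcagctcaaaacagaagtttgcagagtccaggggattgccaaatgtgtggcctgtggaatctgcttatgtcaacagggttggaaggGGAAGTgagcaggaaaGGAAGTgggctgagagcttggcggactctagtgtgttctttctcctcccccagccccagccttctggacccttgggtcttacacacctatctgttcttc
C5ar2, start of C5ar2-201, chr7:16242332-16242581: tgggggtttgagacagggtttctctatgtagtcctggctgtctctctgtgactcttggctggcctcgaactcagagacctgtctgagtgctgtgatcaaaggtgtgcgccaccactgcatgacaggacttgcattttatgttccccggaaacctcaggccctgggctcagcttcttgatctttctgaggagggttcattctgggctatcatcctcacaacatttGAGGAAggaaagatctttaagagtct
C5ar1, start of C5ar1-202, chr7:16259339-16259588: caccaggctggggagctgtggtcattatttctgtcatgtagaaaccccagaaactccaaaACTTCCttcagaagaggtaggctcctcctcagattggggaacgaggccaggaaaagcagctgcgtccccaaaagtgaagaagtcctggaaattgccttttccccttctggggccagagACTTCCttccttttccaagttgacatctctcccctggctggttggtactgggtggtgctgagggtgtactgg
The outer C5ar2 window held GGAAGT on the gene's strand at 115 and 99 bases before the start. The inner one, which lies in the first intron of C5ar2-202, held GAGGAA at 26 bases before its start. The C5ar1 window held GGAAGT on the other strand at 190 and 72 bases before the start of C5ar1-202. Other C5ar1 transcripts start farther out, and 28 bases of the window belong to their first exon. The annotated gene reaches position 16259540, so these matches lie within it and not upstream of the whole gene. Of the 9 promoter entries of the 8 genes that have one, 2 held GAGGAA (the inner C5ar2 entry and Cd59a) and 3 held GGAAGT (the outer C5ar2 entry, C5ar1 and Cr2). GAGGAA occurred in 23.3% and GGAAGT in 19.7% of 32851 promoters searched over the same length. These matches are descriptions of the sequence only.

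C5ar2, the receptor that binds C5a without coupling to G proteins, had 467, 439, 740 and 669 counts in the C57BL/6 mice and 18, 18, 13 and 15 counts in the B6.SLE123 mice. Its levels were 17.7, 16.9, 22.6 and 22.1 CPM against 0.570, 0.484, 0.385 and 0.590 CPM. The strains were far apart and each was narrow, and the transcript was low but not at 0 in any B6.SLE123 mouse. The mean fell from 19.8 ± 2.96 to 0.507 ± 0.0938 CPM (SD, n = 4 each), a log2 fold change of -5.30 (SE 0.16, 95% confidence interval -5.66 to -4.94) or 39.3-fold, with an edgeR adjusted p of 1.05e-08. It ranked 14 from the lowest log2 fold change of all genes in the table. Its exons overlap those of Gm26473, a gene on the same strand, and 4.39% of its 50-base stretches also occur in other genes, so part of its reads could be assigned elsewhere.

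C5ar1, the G protein-coupled receptor through which C5a attracts and activates myeloid cells, had 42, 54, 95 and 86 counts in C57BL/6 and 73, 26, 30 and 32 counts in B6.SLE123 mice. Its levels were 1.59, 2.07, 2.90 and 2.85 CPM against 2.31, 0.699, 0.888 and 1.26 CPM. B6.SLE123 mouse 1 stood among the C57BL/6 mice, and the other 3 were below all of them. The means were 2.35 ± 0.633 and 1.29 ± 0.719 CPM (SD, n = 4 each), and the log2 fold change was -0.89 (SE 0.34, interval -1.65 to -0.13) with an edgeR adjusted p of 0.0486, close to the threshold. The exact two-sided permutation test on log2 CPM gave p = 0.0857. Leaving out any of 6 mice (C57BL/6 2, 3 and 4 and B6.SLE123 2, 3 and 4) ended the call, with edgeR adjusted p of 0.0648 to 0.124, and leaving out B6.SLE123 mouse 1 moved the log2 fold change to -1.35 (edgeR adjusted p = 0.00315).

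The ratio of C5ar2 to C5ar1 per exon length was 8.02, 5.87, 5.62 and 5.61 in the C57BL/6 mice and 0.178, 0.4996, 0.313 and 0.338 in the B6.SLE123 mice. C5ar2 was thus the more abundant C5a receptor transcript in every C57BL/6 mouse and C5ar1 in every B6.SLE123 mouse. The mean log2 ratio was 2.62 ± 0.245 in C57BL/6 and -1.66 ± 0.607 in B6.SLE123 mice (SD, n = 4 each), a difference of -4.28. This ratio and those of the other gene pairs given here were chosen after the levels were seen, so they are descriptions and no test is given. Of the 33 other genes within 1 Mb on either side of C5ar2, 13 passed as lower and 7 as higher, with a median log2 fold change of -0.08. Of these 33 genes, 5 were called and more than 2-fold lower and 1 was called and more than 2-fold higher. Of all genes, 26.6% passed as lower, 26.7% as higher, and 8.29% were called and more than 2-fold lower. The flanking genes Dhx34 (-0.49) and Inafm1 (-0.77) were also lower, with edgeR adjusted p of 2.02e-05 and 7.76e-06. The lowest gene of the region after C5ar2 was Ccdc8 (-3.44), at a low level of 1.84 against 0.170 CPM. The fall of C5ar2 was larger than that of any of these neighbours.

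**Figure D2:**
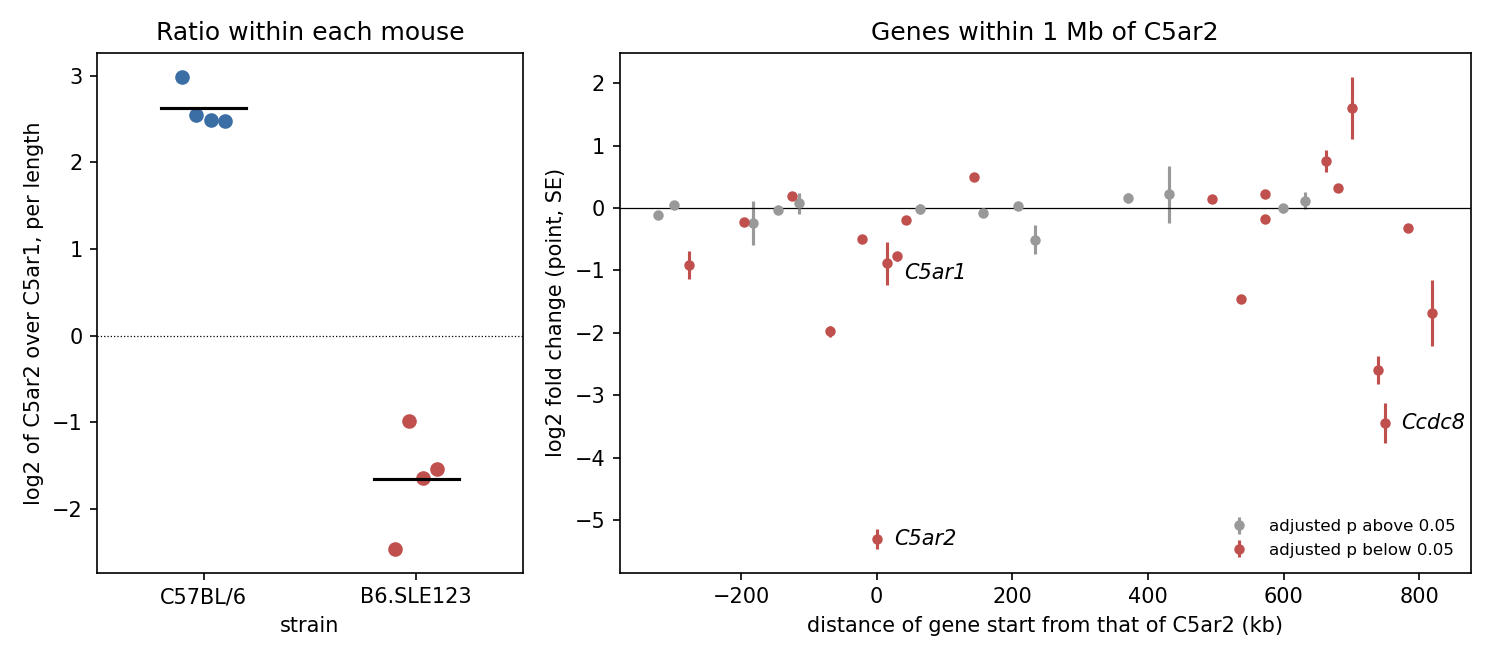
Left, log2 ratio of C5ar2 to C5ar1 per exon length in each mouse, with strain means as bars; right, log2 fold change (point, SE as bar) of the genes within 1 Mb of C5ar2 by distance between gene starts. The ratio is above 0 in all C57BL/6 and below 0 in all B6.SLE123 mice, and C5ar2 at -5.30 lies below Ccdc8 at -3.44.

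C3ar1, the receptor of C3a, is at chr6:122847138-122856161 on the minus strand and has 2 exons. It had 48, 41, 58 and 39 counts in C57BL/6 and 17, 18, 30 and 12 counts in B6.SLE123 mice. Its levels were 1.82, 1.57, 1.77 and 1.29 CPM against 0.538, 0.484, 0.888 and 0.472 CPM. The strains did not overlap, and B6.SLE123 mouse 3 came nearest to the C57BL/6 mice. The means were 1.61 ± 0.239 and 0.595 ± 0.197 CPM (SD, n = 4 each), and the log2 fold change was -1.42 (SE 0.25, interval -1.96 to -0.88; 2.68-fold lower; edgeR adjusted p = 0.000615). Its neighbour Foxj2 had a log2 fold change of -0.05 that did not pass the test, and Necap1 on the other side was lower by -0.21. Of the 18 other genes within 1 Mb of C3ar1, 8 passed as lower and 4 as higher, with a median log2 fold change of -0.14. Of these genes, 5 were called and more than 2-fold lower and 1 was called and more than 2-fold higher. Of all genes, 26.6% passed as lower, 26.7% as higher, and 8.29% were called and more than 2-fold lower.

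Downstream of these receptors, the 19 genes of anaphylatoxin receptor signalling moved in both directions, with 7 lower, 7 higher and a median log2 fold change of 0.01. Rgs1, which speeds the shut-off of G protein signals (-1.35), and the arrestins Arrb1 (-0.55) and Arrb2 (-0.58) were lower. Pik3r6, a regulatory subunit of phosphoinositide 3-kinase gamma (1.11), and the inhibitory G protein subunit Gnai3 (0.34) were higher. All 3 receptors were lower, while this list had as many genes higher as lower.

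Cr2 encodes complement receptors 1 and 2 in the mouse, which hold C3 fragments on B cells and follicular dendritic cells. It lies at chr1:195136811-195176716, on the minus strand, 5224 bp from Cr1l. Its counts were 1373, 1560, 2034 and 1857 in C57BL/6 and 1240, 1153, 1115 and 1065 in B6.SLE123 mice, at 52.0, 59.9, 62.0 and 61.5 against 39.2, 31.0, 33.0 and 41.9 CPM. The strains did not overlap. The means were 58.8 ± 4.68 and 36.3 ± 5.14 CPM (SD, n = 4 each), a log2 fold change of -0.70 (SE 0.09, interval -0.91 to -0.49; 1.63-fold lower; edgeR adjusted p = 0.000109). Of 9 partner and B cell signalling genes listed with CR2, 8 were lower and none higher. The tetraspanin Cd81 had a log2 fold change of -0.97, the low-affinity IgE receptor Fcer2a -1.07 and the adaptor Blnk -1.22. The B cell marker Ms4a1 (CD20) had -0.09 and did not pass. Of the 8 mature B cell markers 6 were lower and 1 was higher, with a median of -0.58. Of the 9 markers of follicular dendritic cells and stroma 5 were lower, with summed levels of 92.3 to 118 CPM against 53.6 to 64.4 CPM. Of the 6 markers of marginal zone B cells, which carry much CR2, 4 were higher and 2 lower, with summed levels of 518 to 573 CPM against 672 to 737 CPM. The part of these cells in the Cr2 difference was not tested.

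Cr1l encodes Crry, a membrane protein that blocks C3 convertases on most mouse cells, at chr1:195097382-195131586. Its counts were 2157, 2169, 2704 and 2529 in C57BL/6 and 1692, 2195, 2157 and 1642 in B6.SLE123 mice. In CPM it was at 81.6, 83.3, 82.5 and 83.7 against 53.5, 59.0, 63.8 and 64.6. The C57BL/6 mice were nearly equal, and the B6.SLE123 mice were all lower and spread more. The means were 82.8 ± 0.920 and 60.2 ± 5.12 CPM (SD, n = 4 each), and the log2 fold change was -0.46 (SE 0.06, interval -0.59 to -0.33), which at 1.37-fold was the smallest change of the 9 genes but was called with an edgeR adjusted p of 6.64e-05. The mean log2 ratio of Cr2 to Cr1l per exon length was -0.14 ± 0.107 in C57BL/6 and -0.39 ± 0.244 in B6.SLE123 mice (SD, n = 4 each). Cd46, a cofactor for cleavage of C3 fragments that lies 5132 bp from Cr1l, was at 3.26 against 1.83 CPM (log2 fold change -0.83, edgeR adjusted p = 0.0039). Of the 4 other genes within 1 Mb of Cr1l, Cr2 and Cd46 were lower and 1, Cd34, was higher (0.77), with a median log2 fold change of -0.02. Of the 50-base stretches of Cr1l, 4.34% recur in other genes, among them the pseudogene Crry-ps.

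Cd55, which encodes decay-accelerating factor, a GPI-anchored protein that breaks up C3 convertases, lies at chr1:130439027-130462744. It had 1130, 1002, 1408 and 1210 counts in C57BL/6 and 571, 520, 620 and 368 counts in B6.SLE123 mice. Its levels were 42.8, 38.5, 42.9 and 40.0 CPM against 18.1, 14.0, 18.3 and 14.5 CPM, so that the lowest C57BL/6 mouse was well above the highest B6.SLE123 mouse. The means were 41.1 ± 2.17 and 16.2 ± 2.31 CPM (SD, n = 4 each), a log2 fold change of -1.34 (SE 0.09, interval -1.54 to -1.14; 2.53-fold lower; edgeR adjusted p = 1.03e-06). The mean log2 ratio of Cd55 to Cr1l per exon length in the same mouse was 0.08 ± 0.0901 in C57BL/6 and -0.81 ± 0.270 in B6.SLE123 mice (SD, n = 4 each), also as a description. The nearest genes in the table were Cxcr4, 1847 kb away, which was higher (log2 fold change 0.48), and Pfkfb2, 226 kb away, which was lower (-0.40). Of its 50-base stretches 9.12% recur in Cd55b and in Gm16083, which overlaps it on the other strand, and the strand setting of the read counting is not given in the sources used here.

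Cd59a, also GPI-anchored, stops assembly of the membrane attack complex and lies at chr2:104095801-104115354 on the plus strand. It had 42, 36, 50 and 58 counts in C57BL/6 and 33, 15, 29 and 22 counts in B6.SLE123 mice, or 1.59, 1.38, 1.52 and 1.92 against 1.04, 0.403, 0.858 and 0.866 CPM. The strains did not overlap, and B6.SLE123 mouse 2 was lowest. The log2 fold change was -1.03 (SE 0.27, interval -1.62 to -0.44; 2.04-fold lower; edgeR adjusted p = 0.00744). Of its 50-base stretches, 3.87% recur in its paralog Cd59b. Its neighbours Fbxo3 (-0.07) and Hipk3 (0.05) did not pass the test. The genes that build and attach the GPI anchor of Cd55 and Cd59a moved less: of 25 measured, 12 were lower, 1 was higher, none changed more than 2-fold, and the median was -0.14.

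**Figure D3:**
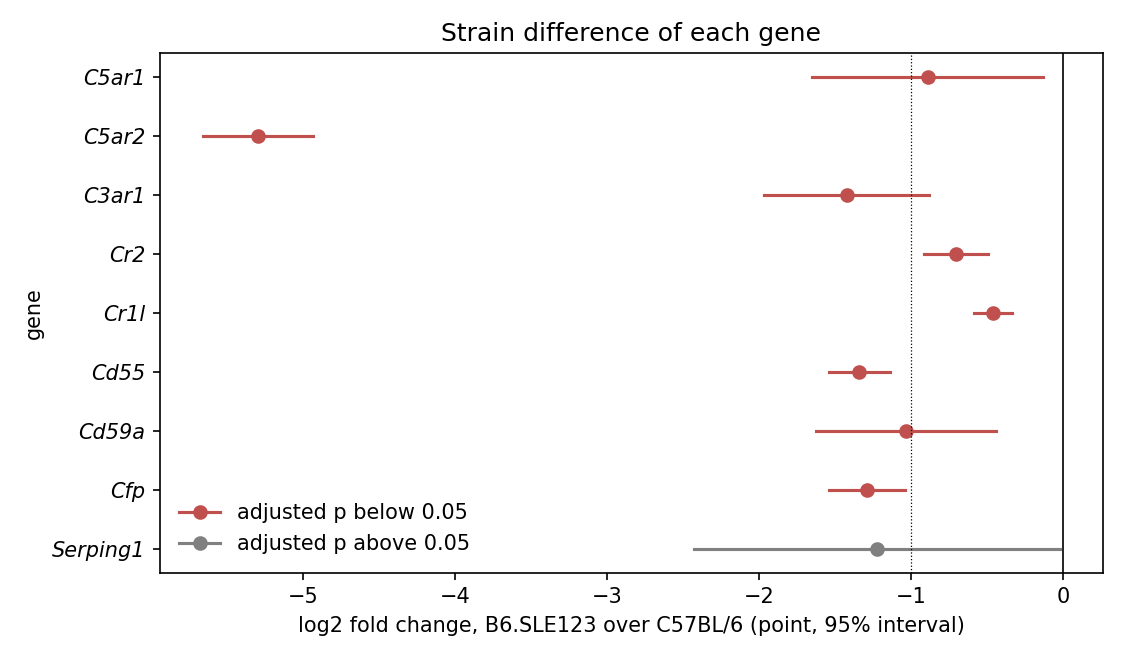
Log2 fold change of each gene (B6.SLE123 over C57BL/6) with its 95% confidence interval from edgeR; the dotted line marks a 2-fold fall. C5ar2 lies at -5.30, apart from the other genes at -1.42 to -0.46, and the Serping1 interval reaches -0.02.

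Cfp encodes properdin, the protein that stabilizes the C3 convertase of the alternative pathway and the only positive regulator among the 9. It lies at chrX:20925454-20931555. It was by far the most abundant, with 25385, 22550, 35616 and 30539 counts in C57BL/6 and 10425, 13176, 15135 and 12050 counts in B6.SLE123 mice. In CPM it was at 961, 866, 1086 and 1011 against 329.8, 354, 448 and 474. The strains were separated by a wide gap. The means were 981 ± 92.5 and 402 ± 70.3 CPM (SD, n = 4 each), and the log2 fold change was -1.29 (SE 0.11, interval -1.54 to -1.04; 2.44-fold lower; edgeR adjusted p = 5.19e-06). Its neighbour Elk1, 1839 bp away, was lower (-0.22), and Timp1 on the other side, at 0.267 against 0.155 CPM, did not pass (-0.76, edgeR adjusted p = 0.256). Of the alternative pathway and C3 list, 3 of 7 genes were in the table, and only C3 passed (-0.49, edgeR adjusted p = 0.0395).

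Serping1 encodes C1 inhibitor, which inactivates the proteases of C1 and of the lectin pathway, and lies at chr2:84765387-84775444. It had 14, 6, 6 and 8 counts in C57BL/6 and 7, 2, 6 and 1 counts in B6.SLE123 mice, or 0.530, 0.230, 0.183 and 0.265 against 0.221, 0.0538, 0.178 and 0.0394 CPM. The strains overlapped. Its log2 fold change of -1.22 (SE 0.55, interval -2.43 to -0.02, not adjusted for the number of genes) did not pass (edgeR adjusted p = 0.0803; exact permutation p = 0.0571). The edgeR p before adjustment was 0.0468, so at these low counts the edgeR call turned on the adjustment over all genes. With each mouse left out in turn the log2 fold change ranged from -1.64 to -0.83 and the edgeR adjusted p from 0.0464 (without B6.SLE123 mouse 1, the only such fit in which it passed) to 0.242 (without C57BL/6 mouse 1). Of its neighbours, Ypel4 was lower (-3.47, edgeR adjusted p = 0.0236) at a low level of 0.463 against 0.0391 CPM at which the mice of the strains overlapped, and Ube2l6 was higher (0.18).

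Levels between genes were compared as CPM per kilobase of exon. In C57BL/6 mice the order was Cfp (565), Cd55 (8.46), Cr1l (8.00), Cr2 (7.25), C5ar2 (5.56), C5ar1 (0.915), Cd59a (0.886), C3ar1 (0.375) and Serping1 (0.130). The ranges over mice of Cd55 and Cr1l overlapped, as did those of C5ar1 and Cd59a, and the other neighbours in this order were apart. In B6.SLE123 mice the order was Cfp (231), Cr1l (5.82), Cr2 (4.47), Cd55 (3.34), C5ar1 (0.502), Cd59a (0.438), C5ar2 (0.142), C3ar1 (0.138) and Serping1 (0.0529). There C5ar1 overlapped with Cd59a, and C5ar2, which had moved from place 5 to place 7, overlapped with C3ar1. Cfp made up 80.9% to 83.4% of the summed CPM of the 9 genes in C57BL/6 mice and 74.1% to 79.2% in B6.SLE123 mice.

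The gene most like each of these across the mice was found by the root mean square difference of gene-centred log2 CPM over the 8 mice, among genes with a mean of at least 5 CPM. Values were centred over both strains together, so this distance includes the strain difference and favours genes with a similar fold change. C5ar2 was closest to Slit1 (0.355, 11.8 against 0.320 CPM) and Scn3a (0.426, 49.4 against 1.17 CPM), on chromosomes 19 and 2. Their log2 fold changes were -5.21 and -5.36. The median distance of all compared genes was 2.58 for C5ar2, and from 0.286 (Cr1l) to 0.770 (Serping1) for the rest. C5ar1 was closest to Fabp4 (0.271) and Cebpb (0.279), and C3ar1 to Agmo (0.149) and Rgs1 (0.161). Smaller distances, at the higher counts of these genes, were found for Cr2 with Prxl2c (0.0639) and Gngt2 (0.0655), Cr1l with Rsrp1 (0.0367) and Ip6k1 (0.0382), Cd55 with Stard8 (0.0730) and Dok3 (0.0897), and Cfp with Tmem106a (0.0531) and Impdh1 (0.0708). Cd59a was closest to Rassf8 (0.201) and Tcp11l2 (0.206), and Serping1 to Pla2g12a (0.399) and Jun (0.410).

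Among the other complement and partner genes more were lower than higher. Of 115 listed, 87 were in the table, and 44 of these were lower and 12 higher, with a median log2 fold change of -0.21. Of all genes tested, 26.6% were lower and 26.7% higher. The 87 genes include partner lists: 25 genes of GPI anchor synthesis (12 lower), 19 of receptor signalling (7 lower) and 9 B cell partners (8 lower). The classical and lectin components had the lowest median of the lists, -2.09 over 11 genes, of which 6 were lower. The C1q chains C1qa (-2.26), C1qb (-2.25) and C1qc (-2.35), which recognise immune complexes and dying cells, C1ra (-2.15), C2 (-2.09) and the ficolin Fcna (-2.71) were the lower ones. Of 3 terminal components, C6 was lower (-2.48) and Hc, which encodes C5, was higher (1.03) but at 0.506 against 1.04 CPM. Among the other regulators Susd4 was higher (2.76), also from a low level of 0.0950 to 0.666 CPM. Of the receptors for C3 fragments from other families, Vsig4 (-1.94), Cd209b (-1.16), Itgam (-0.30) and Itgb2 (-0.21) were lower and Itgax was higher (0.22). Of 6 C1q receptors and binding proteins 3 were lower, Lrp1 (-1.94), Cd44 (-1.02) and Lair1 (-0.72), and C1qbp was higher (0.17). Of 6 listed proteases of the contact and plasmin systems only 2 were in the table, and of these Plau, which encodes urokinase, was lower (-0.28).

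**Figure D4:**
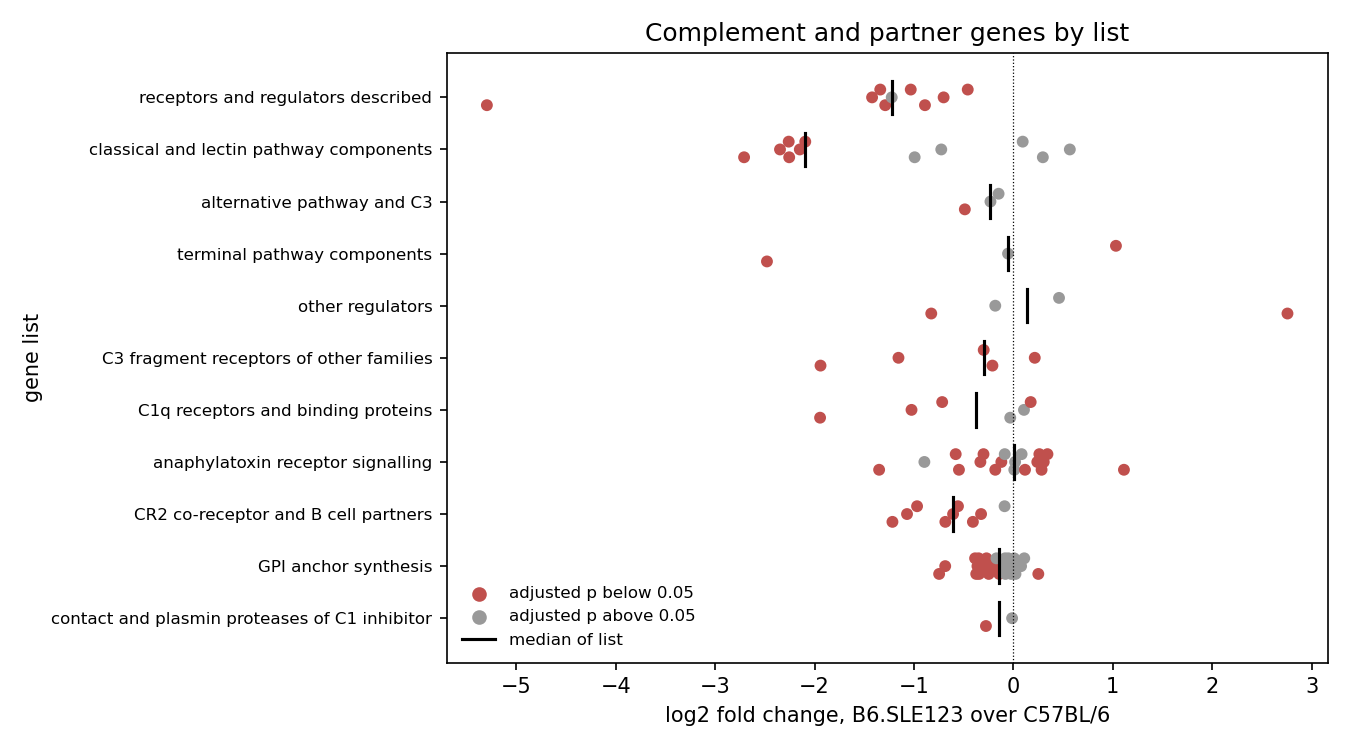
Log2 fold change of each measured complement or partner gene (points) by list, with the median of each list as a bar; red points passed the test. The receptors and regulators described have a median of -1.22, between the classical and lectin components (-2.09) and the remaining lists.

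Markers of several cell types moved between the strains together with these genes. Besides the 12 red pulp macrophage markers (median log2 fold change -2.42), all 4 measured marginal zone macrophage markers were lower, summing to 319 to 401 CPM against 56.9 to 105 CPM. Markers of type 1 conventional dendritic cells summed to 2483 to 2819 CPM against 4048 to 5013 CPM, with 5 of 7 higher and 1 lower, while 4 of 7 of type 2 were lower, at 2039 to 2247 CPM against 1127 to 1387 CPM. The erythroid markers summed to 78.2 to 251 CPM against 8.67 to 38.6 CPM. Of the 8 neutrophil markers 3 were lower and 2 higher, and of the 7 monocyte markers 2 were lower. C1qa and Cd209b stand in both a complement and a marker list. The part of these cell types in the differences of the receptors and regulators was not tested.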

How the data were processed

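Per the labels and the study's methods, RNA of CD11c-positive splenocytes was prepared with a stranded mRNA kit, and the authors' processing named FastQC, cutadapt, STAR, featureCounts and DESeq2 with mm10. Versions and the strand setting of counting are not given in the sources used here. The authors deposited 1 table of 13786 protein-coding genes with raw counts per gene and mouse, without normalization. The larger of the strain medians was at least 5 counts for every gene, so rarer genes were not tested. The same table holds the authors' comparison of the strains: a mean normalized signal per gene, a log2 fold change with its standard error, a test score, p-values, and the fold change as a ratio. None of these deposited comparison columns was used. Because mm10 is C57BL/6 sequence, reads of NZM2410-derived sequence could align less well, which was not tested.

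The strains were compared in R 4.3.3 with the quasi-likelihood test of edgeR 4.0.16 on TMM-scaled libraries, with strain as the only factor, no filter, and Benjamini-Hochberg adjustment over all genes at 0.05. Log2 CPM used a prior count of 2, and pair ratios a pseudocount of 0.5. Gene coordinates matched GENCODE M21 for 13663 genes, and 21 symbols that had become dates were restored from their identifiers. Scripts were tested on simulated counts. No mice of a strain agreed within sampling noise (chi-square per degree of freedom 4.87 to 18.3), so each counted once. The p-values weigh the strain difference against the variation between these samples. Replicate numbers were not taken as pairs. Alternatives were relative log expression factors, genes with at least 10 counts in every mouse, DESeq2 1.42.0, limma-voom (limma 3.58.1), a replicate block, other thresholds, and each mouse left out. The members, lists, markers and tests were chosen with earlier results of these data known. Named were all 9 genes, C1qa to C1qc, called and more than 2-fold changed genes of each list and any gene its count turned on, the nearest gene on each side, the 2 most alike, and defining markers. Other list genes with smaller changes (such as Arrb1, Gnai3, Cd81, Itgam and C1qbp), Ms4a1, Ccdc8 and Cd34 were named after their values were seen, and 1 listed gene is not reported here. The article's other experiments were not used here.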

Additional observations from a re-analysis of the deposited data

How the results depend on the processing

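The alternatives gave 87 recomputed counts, of called genes or of receptors and regulators whose strains did not overlap. Of these, 83 equalled the reported value or stayed within 1.5 times it. The other 4 came with the requirement of a more than 2-fold change. Then 1524 genes were called, 5 of the 9 receptors and regulators were lower, and 14 of the other complement and partner genes were lower and 3 higher. With each mouse left out in turn, 6496 to 7013 genes were called, and 7 to 9 of the receptors and regulators were lower and 0 higher. In these fits 42 to 44 of the other complement and partner genes were lower and 9 to 12 higher, and 7 to 9 of the receptors and regulators had no overlap. Of 125 recomputed values of the 9 genes, 117 kept their direction and side of the threshold, 7 lost a call, all of C5ar1, and 1, Serping1 without B6.SLE123 mouse 1, gained one; none reversed. With the replicate number as a block, 7183 genes were called, and 7 of the 9 genes were lower, since C5ar1 had a log2 fold change of -0.94 and an edgeR adjusted p of 0.0503. Deviations of same-numbered mice correlated by 0.0763 to 0.237 over 10145 genes, so the numbers were not taken to pair the mice. The block changed no other call of the 9 genes. Across the other tools C5ar1 stayed called, with an adjusted p of 0.0282 by DESeq2 and 0.0241 by limma-voom. Serping1 was not among the 12053 genes with at least 10 counts in every mouse. Scaling with library sizes that leave out macrophage, B cell and erythroid markers, an alternative chosen after seeing the data, changed no call of the 9 genes. Depth limits C5ar1, C3ar1, Cd59a and Serping1, which had under 100 counts in every mouse.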
